A study of Homo sapiens with 7 samples.

Results

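The CDK inhibitor genes are the 7 genes CDKN1A, CDKN1B, CDKN1C, CDKN2A, CDKN2B, CDKN2C and CDKN2D, whose proteins block the cyclin-dependent kinases that drive the cell cycle. Their H3K4me3 was read from the deposited regions that overlap 3 kb either side of 8 hg19 transcription starts, of which CDKN2A has a pair. This gave 10 of the 30840 regions. No gene was without a region: each of the 8 starts had 1 region at or next to it, and CDKN2B and CDKN2D each had a second, weak one.

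The samples came from a KDM5A-/- line of HCT116, a human colon cancer cell line, so all groups lacked their own KDM5A. They received mutant KDM5A, wild-type KDM5A or an empty vector (EV) by transfection and were fixed after 24 h. Each of the 3 transfections gave 1 ChIP-seq library, named below the mutant, wild-type and EV library. No difference therefore has a replicate check or a p-value, and the 95% intervals given in brackets hold counting error alone. The sources used here give neither the change made in the mutant, nor the number of knockout clones, nor the promoter that drove the transfected KDM5A. The knockout cells were kept under G418, a selection antibiotic.

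H3K4me3 is histone H3 that carries a trimethyl group on lysine 4. It marks the promoters of active and poised genes, and KDM5A is a demethylase that removes it. KDM5A was first found as a binding partner of the retinoblastoma protein RB. The inhibitors act upstream of RB. Members of the INK4 family (p16, p15, p18 and p19) bind CDK4 and CDK6, members of the CIP/KIP family (p21, p27 and p57) bind several cyclin-CDK complexes, and both keep RB unphosphorylated and the cell in G1. Loss of KDM5A has been linked to higher expression of several of these inhibitors in tumour cells.

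The promoters of 4 starts are shown, because CDKN1A had the lowest ratios to EV among the promoters that could be shown, and the starts of ARF, p16 and CDKN2B lie in 1 locus, 9p21, where ARF had the highest level. Each line holds the 250 bases before the start from RefSeq (GRCh38.p14), on the gene's strand, 5′ to 3′. Capitals mark CCGCCC on either strand, a motif of 6 bases that the DNA-binding ARID domain of KDM5A recognises in vitro and whose reverse complement, GGGCGG, is the GC box bound by SP1.
CDKN1A, chromosome 6, plus strand: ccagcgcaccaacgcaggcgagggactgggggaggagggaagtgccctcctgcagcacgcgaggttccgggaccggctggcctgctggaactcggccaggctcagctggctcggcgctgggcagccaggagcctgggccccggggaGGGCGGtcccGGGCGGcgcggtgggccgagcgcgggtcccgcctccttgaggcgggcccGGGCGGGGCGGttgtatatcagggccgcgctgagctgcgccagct
CDKN2A ARF start, chromosome 9, minus strand: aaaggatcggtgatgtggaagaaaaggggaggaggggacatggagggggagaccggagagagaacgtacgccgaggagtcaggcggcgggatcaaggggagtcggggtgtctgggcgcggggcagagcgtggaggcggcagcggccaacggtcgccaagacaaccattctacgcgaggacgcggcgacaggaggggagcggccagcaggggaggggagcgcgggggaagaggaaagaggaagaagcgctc
CDKN2A p16 start, chromosome 9, minus strand: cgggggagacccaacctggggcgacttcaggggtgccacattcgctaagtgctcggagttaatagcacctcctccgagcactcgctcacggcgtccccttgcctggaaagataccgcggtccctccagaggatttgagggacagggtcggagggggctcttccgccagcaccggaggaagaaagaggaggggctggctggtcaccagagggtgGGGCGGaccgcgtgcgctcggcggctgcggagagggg
CDKN2B, chromosome 9, minus strand: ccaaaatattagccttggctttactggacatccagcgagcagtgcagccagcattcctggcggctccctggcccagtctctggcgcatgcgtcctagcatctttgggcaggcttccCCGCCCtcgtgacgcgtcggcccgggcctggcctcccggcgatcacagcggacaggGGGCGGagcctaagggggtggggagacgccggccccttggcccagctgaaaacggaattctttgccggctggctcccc

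CDKN1A held 4 copies of the motif, CDKN2B 2, the p16 start 1 and the ARF start 0. The table matched 6 of the 7 symbols, all but CDKN1C, with 9 windows in all, of which CDKN2C had 3. The motif was in 7 of the 9 windows, against 42.6% of the 35114 windows of the table. TATAAA was in 0 of the 9 windows, against 10.7% of all. The windows of CDKN1A, ARF, p16 and CDKN2B held 27, 24, 20 and 18 CG dinucleotides, and the median window of the table held 11. Of the 9 windows, 7 held more than this median, and windows of CDKN2C with 7 and 10 held fewer. A match is a description of these letters and not a binding site.

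The libraries held 9906508 reads for the mutant, 10852411 for the wild type and 10713021 for EV, and a level in RPM is the number of reads in a region per 1000000 of these. At 20 regions on chromosome 12 inside the KDM5A locus, which served as the check of the labels, 4825 reads came from the mutant library, 4297 from the wild-type library and 43 from the EV library. These regions were chosen for low reads in the EV library, between regions high in both KDM5A libraries. The contrast with EV was therefore set in part by the choice, and it cannot tell the mutant label from the wild-type label. A region lay within 3 kb of the starts of 3 of 4 colon epithelial markers (EPCAM, CDH1 and CDX2, and not VIL1) and of neither PTPRC, a leukocyte marker, nor ALB, a hepatocyte marker. Most strong regions were lower in both KDM5A libraries. Among the 10882 regions with a mean of 20 RPM or more outside that chromosome 12 cluster, the median ratio to EV was 0.843 for the mutant and 0.901 for the wild type, and that of mutant to wild type was 0.937. The ratios of the CDK inhibitor genes are read beside these 3 medians. The share of reads inside listed regions was 56.9% in the mutant, 60.7% in the wild-type and 67.0% in the EV library. RPM gives every library the same total, so poorer ChIP enrichment and a general loss of mark cannot be told apart.

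All 8 promoter regions lay between 24.9 and 88.8 RPM in every library and were far above the 0.303, 0.276 and 0.280 RPM that 0 reads would allow in the mutant, wild-type and empty vector libraries. Most of them were among the stronger regions of the table. The ARF start, CDKN1A, CDKN1B, CDKN2C and CDKN2D were at or above the 95th percentile of mean RPM, CDKN1C was at the 81.7th, and the p16 start and CDKN2B were at the 69.7th and 68.8th. The RPM of a region is summed over its width, and these regions measured 2179 to 5663 bp, against a median of 1268 bp in the table.

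**Figure D1:**
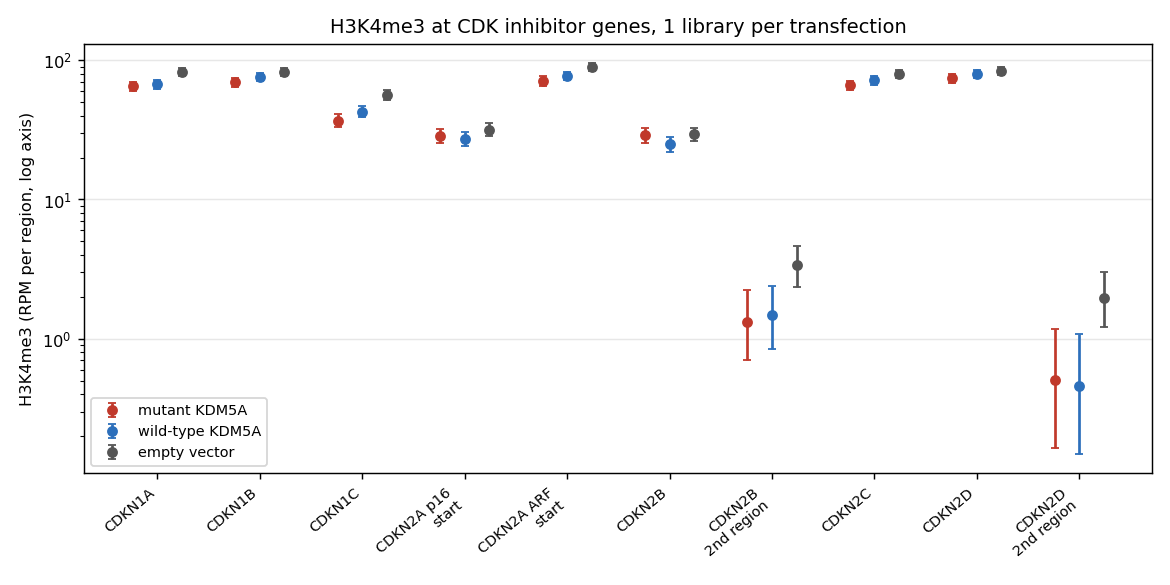
H3K4me3 (RPM per region, log axis) at the 10 regions of the CDK inhibitor genes in the mutant KDM5A, wild-type KDM5A and empty vector libraries; each point is 1 library and the bars are exact Poisson 95% intervals. The 8 promoter regions lie between 24.9 and 88.8 RPM, and the second regions of CDKN2B and CDKN2D lie below 4 RPM with their highest value in the EV library.

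Per kb of region, which allows levels to be compared between genes, the order of the mean over the 3 libraries was CDKN2C (21.2 RPM per kb), CDKN1B (19.1), CDKN1C (17.9), the ARF start (16.8), CDKN1A (14.2), CDKN2D (13.97), CDKN2B (12.7) and the p16 start (10.9). This order changed between libraries: CDKN1C came after CDKN2C in the EV library (22.3 RPM per kb, CDKN1B 20.7) and after the ARF start in the mutant library (14.6 RPM per kb, ARF 15.04), where CDKN2B also stood above CDKN2D and CDKN1A. The intervals of CDKN2C and CDKN1B, of CDKN1A and CDKN2D, and of CDKN2B and the p16 start overlapped in every library. The ARF start and CDKN1A did not overlap in the wild-type library, with 16.4 (15.3 to 17.6) and 13.3 (12.4 to 14.4) RPM per kb, nor in the EV library. The ends of the order were apart in every library: CDKN2C and the p16 start had 19.4 and 10.7 RPM per kb in the mutant library, 20.9 and 10.2 in the wild-type library and 23.3 and 11.9 in the EV library.

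**Figure D2:**
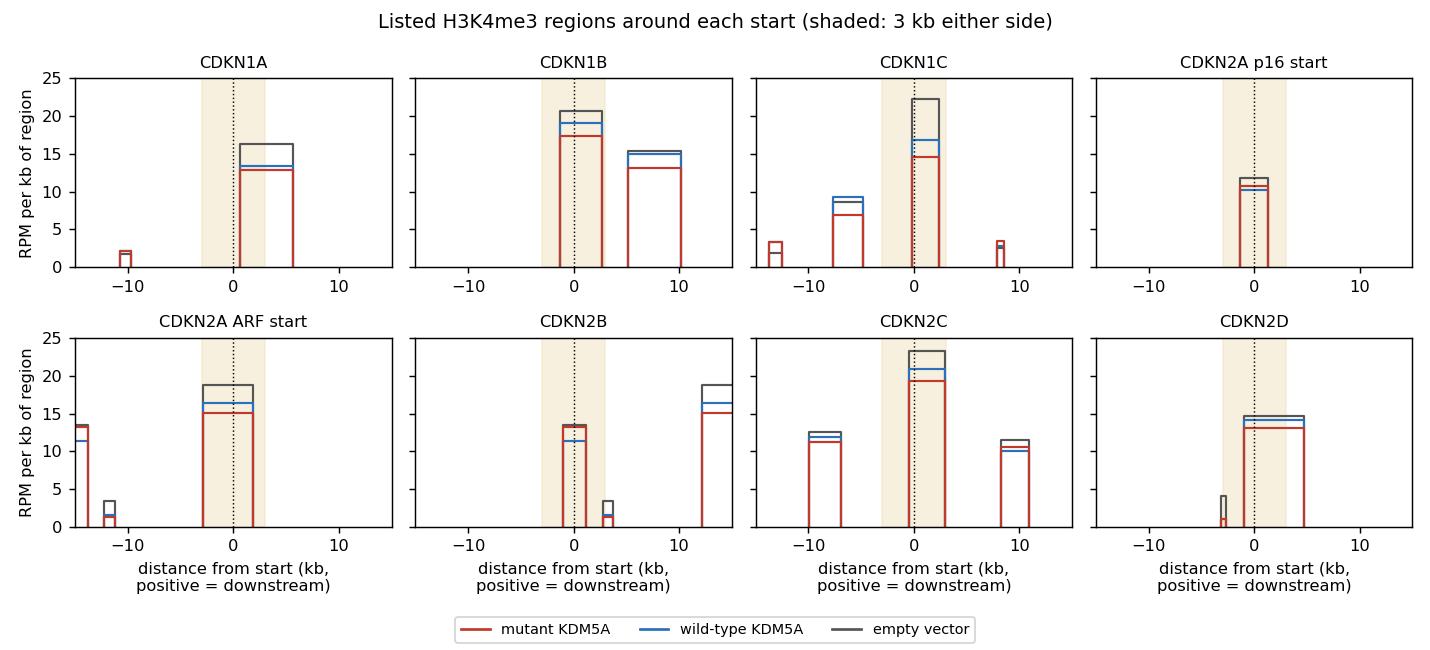
Listed H3K4me3 regions within 15 kb of each of the 8 starts, drawn as boxes from the first to the last base of the region, with distance from the start in kb on the x axis (positive is downstream on the gene's strand) and RPM per kb of region on the y axis. The lines are the mutant KDM5A, wild-type KDM5A and empty vector libraries and the shading is 3 kb either side; the CDKN1C box shows the widest gap between the libraries.

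In the CIP/KIP family, CDKN1C had the lowest ratio to EV of all 8 promoters with both forms of KDM5A. CDKN1C encodes p57, an imprinted inhibitor expressed mainly from the maternal copy. Its region, at chromosome 11, 2904637 to 2907168, had 36.8 RPM (365 reads) in the mutant library, 42.7 RPM (463 reads) in the wild-type library and 56.4 RPM (604 reads) in the EV library. The mutant library was the lowest and the EV library the highest. The level was 1.53-fold lower in the mutant library (1.34 to 1.75) and 1.32-fold lower in the wild-type library (1.17 to 1.49) than in the EV library, and both intervals lie beyond the median shift of strong regions. Of the strong regions, 0.285% had a ratio of mutant to EV as low, and 1.39% a ratio of wild-type to EV as low. The mutant to wild-type ratio was 0.864 (0.751 to 0.993), which includes the strong median of 0.937.

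The region of CDKN1C covered nearly the whole gene, from 0.168 kb before to 2.36 kb beyond the start, in a gene of 2.56 kb in RefSeq. The next region upstream, at chromosome 11, 2911783 to 2914719, had 20.4 RPM in the mutant library, 27.4 RPM in the wild-type library and 25.5 RPM in the EV library. There the ratio of wild-type to EV was 1.07 (0.908 to 1.27), an interval that does not overlap that of CDKN1C (0.669 to 0.856). The ratio of mutant to EV was 0.800 (0.664 to 0.963) at this neighbour, an interval that overlaps that of CDKN1C (0.572 to 0.745).

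CDKN1A encodes p21, the main inhibitor induced by p53. Its region, at chromosome 6, 36645619 to 36650631, had 64.8 RPM (642 reads) in the mutant library, 66.9 RPM (726 reads) in the wild-type library and 82.0 RPM (879 reads) in the EV library. Both KDM5A libraries were lower than the EV library and were close to each other. The ratio to EV was 0.790 (0.712 to 0.875) in the mutant library and 0.815 (0.738 to 0.901) in the wild-type library. Both intervals exclude 1, and both include the strong median, the wild-type one only at its upper end. The mutant to wild-type ratio was 0.969 (0.870 to 1.08). The region reached 5.63 kb past the start. Of the strong regions, 8.98% had a ratio of wild-type to EV as low.

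CDKN1B encodes p27, which holds cells in quiescence. Its region, at chromosome 12, 12868734 to 12872724, had 69.4 RPM in the mutant library, 76.0 RPM in the wild-type library and 82.7 RPM in the EV library. The ratio to EV was 0.840 (0.759 to 0.929) in the mutant library and 0.919 (0.835 to 1.01) in the wild-type library, and both stand close to the strong medians. The next region, 5.12 kb downstream of the start, had 66.8, 76.4 and 78.3 RPM in the mutant, wild-type and EV libraries. In gene order CDKN1B is followed by APOLD1, and the files do not name the gene of that region.

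The locus at 9p21 holds CDKN2A and CDKN2B. CDKN2A makes unrelated proteins from separate first exons: p16, which binds CDK4 and CDK6, and ARF, which protects p53 by binding MDM2. The ARF region, at chromosome 9, 21992140 to 21996852, had 70.9 RPM in the mutant library, 77.3 RPM in the wild-type library and 88.8 RPM in the EV library. Its ratio to EV was 0.798 (0.723 to 0.881) in the mutant library and 0.871 (0.793 to 0.957) in the wild-type library, with both intervals below 1 and both including the strong median. The non-coding gene CDKN2B-AS1 starts close to ARF on the other strand, and ChIP reads are not stranded, so the mark of ARF and of this neighbour cannot be told apart.

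The p16 region, at chromosome 9, 21973666 to 21976338, had 28.7 RPM (284 reads) in the mutant library, 27.3 RPM (296 reads) in the wild-type library and 31.7 RPM (340 reads) in the EV library. Here the lowest library was that of wild-type KDM5A. The ratio to EV was 0.903 (0.769 to 1.06) in the mutant library and 0.859 (0.733 to 1.01) in the wild-type library, and the mutant to wild-type ratio was 1.05 (0.890 to 1.24). All 3 intervals include 1. Per kb, the ARF start had more mark than the p16 start in every library, with 15.04, 16.4 and 18.8 RPM per kb in the mutant, wild-type and EV libraries.

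CDKN2B encodes p15, a partner of p16 in blocking CDK4 and CDK6 that is induced by TGF-beta. Its promoter region, at chromosome 9, 22007797 to 22009975, had 28.9 RPM (286 reads) in the mutant library, 24.9 RPM (270 reads) in the wild-type library and 29.3 RPM (314 reads) in the EV library. The mutant library was close to the EV library and the wild-type library was the lowest. The ratio of mutant to EV was 0.985 (0.836 to 1.16), and 97.0% of strong regions had a ratio as low or lower. Its interval nevertheless includes the strong median of 0.843. The ratio of wild-type to EV was 0.849 (0.719 to 1.002). The mutant to wild-type ratio was 1.16 (0.979 to 1.38), the highest of the 8 promoters. This interval includes 1 and lies above the strong median of 0.937, and 99.5% of strong regions had a ratio as low or lower.

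Among the 8 promoters, p16 and CDKN2B were the weakest and the only ones with more RPM in the mutant than in the wild-type library. They also had the fewest reads, at most 340 in any library, and the widest intervals. The ARF start, between them on the chromosome, had a mutant to wild-type ratio of 0.917 (0.828 to 1.01), an interval that overlaps both of theirs.

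CDKN2C and CDKN2D encode p18 and p19, the INK4 members best known from development. The CDKN2C region, at chromosome 1, 51433487 to 51436902, had 66.1 RPM in the mutant library, 71.5 RPM in the wild-type library and 79.6 RPM in the EV library. Its ratio to EV was 0.830 (0.749 to 0.920) in the mutant library and 0.898 (0.814 to 0.991) in the wild-type library, close to the strong medians. The CDKN2D region, at chromosome 19, 10675277 to 10680939, had 74.3 RPM in the mutant library, 79.8 RPM in the wild-type library and 83.2 RPM in the EV library. It showed the smallest difference of the 8 promoters between the wild-type and EV libraries, a ratio of 0.959 (0.873 to 1.05), and its ratio for the mutant was 0.893 (0.809 to 0.986). That region ran 4.72 kb past the start of a gene of 2.52 kb in RefSeq, whose neighbour on that side is KRI1, so its reads are not of CDKN2D alone.

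**Figure D3:**
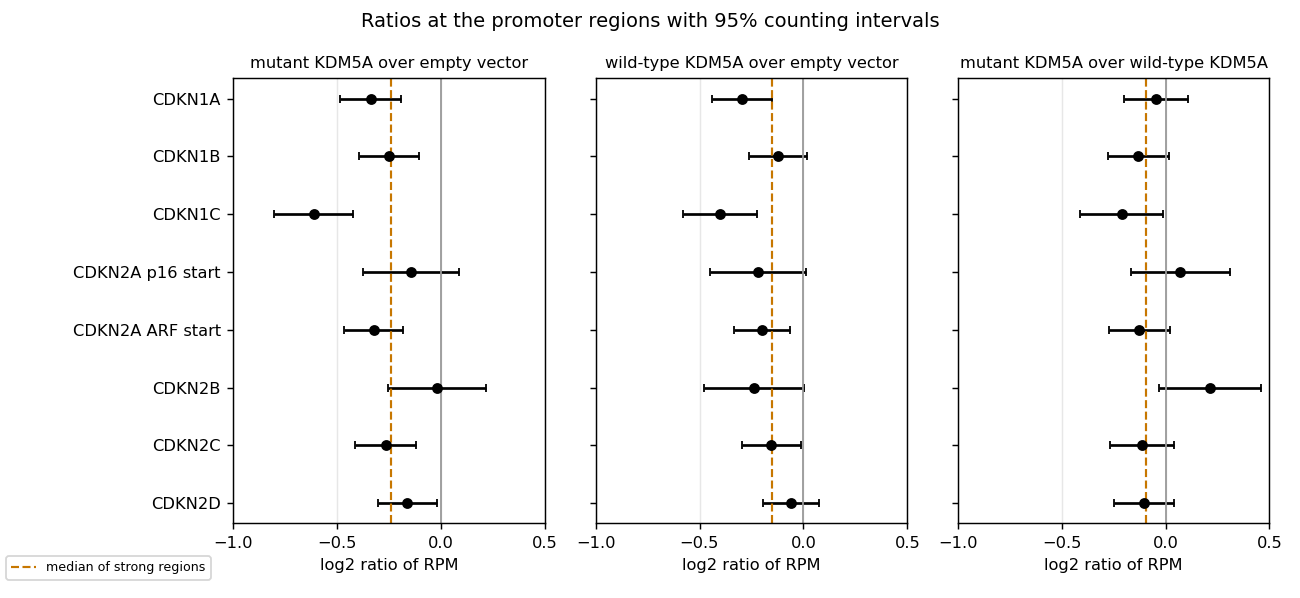
Log2 ratios of RPM at the 8 promoter regions for mutant over EV, wild type over EV and mutant over wild type, with exact conditional 95% intervals from the reads (1 library per group); the dashed line is the median of strong regions. CDKN1C lies left of the dashed line with its whole interval in both panels against EV, and CDKN2B lies right of it in the panel of mutant over wild type.

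The second regions of CDKN2B and CDKN2D were weak and carried the lowest ratios to EV of the 10. The CDKN2B one, at chromosome 9, 22005259 to 22006237, begins 2.76 kb downstream of the start inside the gene and had 1.31 RPM (13 reads) in the mutant library, 1.47 RPM (16 reads) in the wild-type library and 3.36 RPM (36 reads) in the EV library. The CDKN2D one, at chromosome 19, 10682660 to 10683135, lies 2.66 kb upstream and had 0.505 RPM (5 reads), 0.461 RPM (5 reads) and 1.96 RPM (21 reads) in the same libraries. In both, the EV library was the highest and the KDM5A libraries were close to each other. The CDKN2B one had a ratio to EV of 0.391 (0.190 to 0.754) in the mutant library and 0.439 (0.227 to 0.811) in the wild-type library. The CDKN2D one had 0.257 (0.076 to 0.702) and 0.235 (0.069 to 0.640). They were the regions nearest the edge of the window, and the nearest ones left out by it lay 4.78 kb from the CDKN1C start and 5.12 kb from the CDKN1B start. How regions were called is not given, so the second regions may be listed through the EV library alone. A low ratio to EV would then be set in part by the listing, and this was not tested.

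Counted at 1.5-fold on the scale of log2(RPM + 0.7), 3 of the 10 regions were lower in the mutant than in the EV library, where 8.15% of all 30840 regions were. These were CDKN1C, at −0.60, and the second regions of CDKN2B and CDKN2D, at −1.01 and −1.14. In the wild-type library 2 of the 10 were lower than in the EV library, the second regions of CDKN2B and CDKN2D at −0.90 and −1.20, where 6.53% of all regions were. Such calls are more common at the level of those second regions, since 13.9% and 11.9% of the 15714 regions under 5 RPM were called lower in the mutant and in the wild-type library. Of the 8 promoters, 1 was called in the mutant library (CDKN1C) and 0 in the wild-type library. Of the 10882 strong regions, the level class of these promoters, 47 were called lower in the mutant and 5 in the wild-type library. The CDKN1C call was lost when the pair was scaled to a median ratio of 1 (−0.37), scaled to equal sums (−0.37) or freed of the median of the 500 regions nearest in level (−0.36), and at a pseudocount of 3.5 RPM (−0.57). None of the 10 regions was higher at 1.5-fold, where 6.61% of all regions were in the mutant and 6.23% in the wild-type library. Between the mutant and wild-type libraries 0 of the 10 passed in either direction, where 5.45% of all regions were lower and 5.19% higher. At 2-fold, 2 of the 10 regions were lower in the mutant and 1 in the wild-type library than in the EV library, where 1.78% and 1.29% of all regions were. None was higher, where 1.18% and 1.04% were. Between the mutant and wild-type libraries 0 of the 10 passed 2-fold, where 0.649% of all regions were lower and 0.872% higher.

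The median log2 ratio of the 10 regions was −0.29 for mutant over EV, −0.22 for wild type over EV and −0.11 for mutant over wild type. The strong regions had medians of −0.24, −0.15 and −0.093 and all listed regions of −0.18, −0.11 and −0.077. All 10 regions were below 0 against EV with both forms of KDM5A, as were 98.1% of strong regions in the mutant and 91.4% in the wild-type library, the level class of the 8 promoters. Over all listed regions the shares were 70.5% and 66.7%, and both comparisons share the 1 EV library. This direction was not common to all genes under other scaling: with each library pair scaled to a median ratio of 1, 5 of the 7 genes stayed below 0 and 2 were above it in each comparison with EV. CDKN1C was at −0.37 for the mutant and −0.26 for the wild type on that scale and was the lowest of the 7 genes in both. Summed over the 8 promoters, the mutant library held 439.9 RPM, the wild-type library 466 RPM and the EV library 534 RPM. This is a ratio to EV of 0.824 (0.792 to 0.857) for the mutant and of 0.874 (0.841 to 0.908) for the wild type. Mutant over wild type gave 0.943 (0.906 to 0.983).

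**Figure D4:**
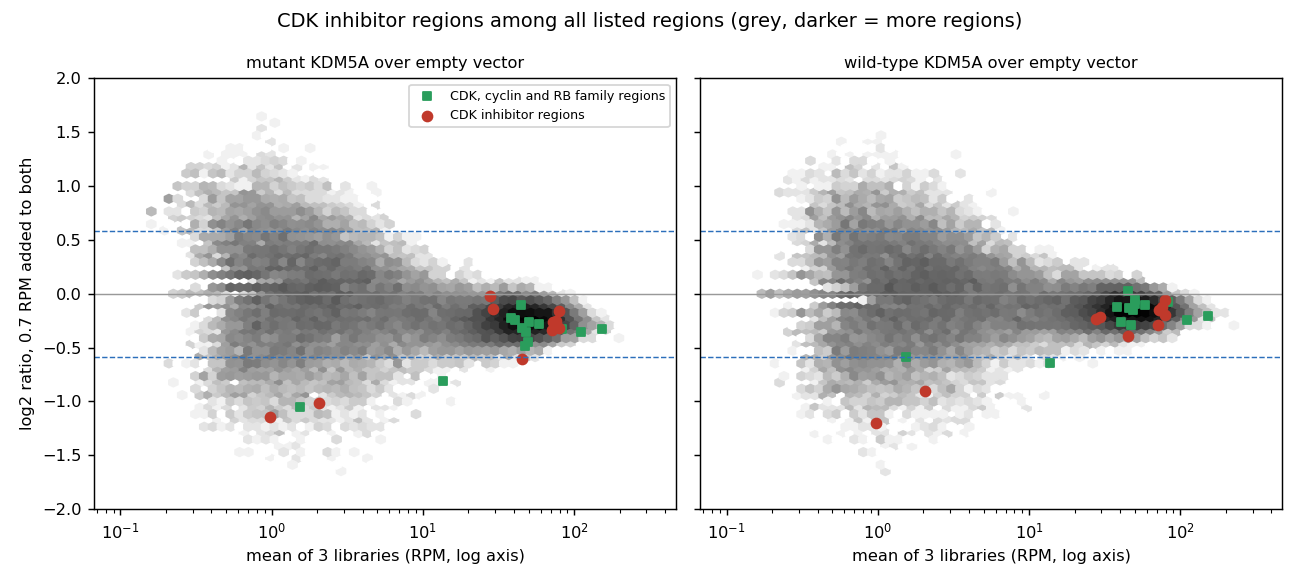
Log2 ratio of RPM with 0.7 RPM added (y axis) against the mean of the 3 libraries in RPM (x axis, log), for mutant over EV and wild type over EV; grey cells are all 30840 regions, red points the 10 CDK inhibitor regions, green squares the 14 regions of CDKs, cyclins and the RB family, and dashed lines 1.5-fold. Most red points lie inside the dense grey body of strong regions, with CDKN1C at its lower edge and the second regions of CDKN2B and CDKN2D far to the left and lower.

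The genes on which these inhibitors act were read in the same way: CDK2, CDK4 and CDK6, the cyclin genes CCND1, CCND2, CCND3, CCNE1, CCNE2 and CCNA2, and RB1, RBL1 and RBL2. Their 12 starts had 14 regions. At 1.5-fold 2 of the 14 were lower in the mutant and 2 in the wild-type library than in the EV library, all at CCND2, where 8.15% and 6.53% of all regions were. None was higher, where 6.61% and 6.23% were. The second CCND2 region was weak, with 8, 15 and 26 reads in the mutant, wild-type and EV libraries, and its wild-type ratio to EV of 0.570 (0.280 to 1.12) has an interval that includes 1. The summed ratio to EV of the 14 was 0.792 (0.768 to 0.817) for the mutant and 0.891 (0.865 to 0.917) for the wild type. Summed over the 10 CDK inhibitor regions, second ones included, it was 0.819 (0.788 to 0.852) and 0.869 (0.836 to 0.902). The intervals of both sums overlap in each comparison. CCND2, which encodes cyclin D2, had 10.4 RPM in the mutant library, 11.8 RPM in the wild-type library and 18.8 RPM in the EV library at its start. It had the lowest ratio of the 12 starts in both comparisons, 0.554 (0.433 to 0.706) for the mutant and 0.629 (0.4997 to 0.789) for the wild type. CDK4, a target of the INK4 proteins, had the highest in both at its start, with 42.4 RPM in the mutant, 46.3 RPM in the wild-type and 45.6 RPM in the EV library. A second CDK4 region, 2.13 kb upstream, had 40.5, 53.4 and 55.6 RPM in the same libraries. Its ratio to EV was 0.728 (0.639 to 0.827) for the mutant and 0.961 (0.855 to 1.08) for the wild type. Its mutant to wild-type ratio was 0.757 (0.665 to 0.862). Between the mutant and wild-type libraries the lowest ratio of the 12 starts was CCNE2, a cyclin E gene, at 0.838 (0.759 to 0.925), and the highest was CDK2 at 1.01 (0.877 to 1.16). RB1, the gene of the retinoblastoma protein, had 52.3, 59.3 and 63.7 RPM in the mutant, wild-type and EV libraries.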

How the data were processed

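H3K4me3 ChIP-seq was measured in 3 libraries, 1 per transfection, of a series of 7 samples. The 3 input libraries and the 1 pooled IgG library were not used here, and no background was subtracted. The RPM values, reads of a region per 1000000 reads of its library, were computed and deposited by the authors. The submitters' processing notes name the build hg19 and, as tools, Bowtie2 (2.5.4), deepTools (3.5.6), HOMER, MACS and MACS2, with no role or order. Neither the calling of regions nor the counting is given in the sources used here. For EV the column header reads H3K4me4, taken as a slip.

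Dividing the RPM of a library by its smallest step gave whole reads within 0.02 for 100% of values. These reads gave exact Poisson intervals of levels and exact conditional (Clopper-Pearson) intervals of ratios, and 3 reads were the limit that a count of 0 allows. Ratios of single regions carry no pseudocount. Log2 ratios have 0.7 RPM added, which understates the change of weak regions. With 1 library per group no test between groups was made, and the calculation was tested on simulated data.

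Starts of the CDK inhibitor genes were given to the nearest 1 kb. Those of the CDKs, cyclins, RB family, KDM5A and markers were written from general knowledge of hg19, as no annotation of that build was used. RefSeq (GRCh38.p14) gave only promoter sequences, gene lengths and gene order. The region nearest a start was taken as its promoter. Named were all CDK inhibitor regions, some of their next regions and, per comparison, the highest and lowest CDK, cyclin or RB family gene. RB1 was added after its values were seen. Members, lists, thresholds and the class of strong regions (20 RPM or more) were chosen with earlier results of these data known. Alternatives changed the pseudocount, scaling, trend on level, threshold, window and filter. Python 3.11.15 was used with scipy 1.17.1, numpy 2.4.6, pandas 2.3.3 and matplotlib 3.10.9.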

Additional observations from a re-analysis of the deposited data

How the results depend on the processing

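No paired analysis was possible because each transfection has 1 H3K4me3 library, and for the same reason none could be left out. Of 10 CDK inhibitor regions, 3 were lower past 1.5-fold for mutant over EV and 2 for wild type over EV. A pseudocount of 3.5 RPM left 0 and 0, a window of 1 kb and regions at or above the median RPM each left 1 and 0, and the 2-fold threshold left 1 for wild type over EV.
The median log2 ratio of these regions became −0.062 for mutant over EV, −0.084 for wild type over EV and −0.016 for mutant over wild type when scaled to a median ratio of 1. It became −0.061, −0.082 and −0.016 with equal sums over the regions, and −0.057, −0.080 and −0.021 after the median of the 500 regions nearest in level was subtracted. Under these 3 settings 2 of the 7 genes changed sign in each comparison with EV. The value of a gene here takes all its regions together, so those of CDKN2B and CDKN2D include their weak second regions. With the median ratio set to 1 these were, for mutant over EV, CDKN2B (0.12, against −0.11 as deposited) and CDKN2D (0.047, against −0.19), and for wild type over EV, CDKN1B (0.019, against −0.12) and CDKN2D (0.056, against −0.084). For mutant over wild type CDKN1A and CDKN2A changed sign, to 0.046 and 0.021. The count of lower regions for mutant over EV was 2 under each of these 3 settings, without CDKN1C. Over all regions, scaling by the median ratio moved the median by 0.21, 0.13 and 0.084 in the same order, and lower regions then made up 31.7%, 37.0% and 40.2% of those past 1.5-fold, against 55.2%, 51.2% and 51.2% in the deposited RPM.
Of the 14 CDK, cyclin and RB family regions, 2 were lower past 1.5-fold for mutant over EV and 2 for wild type over EV. This became 1 and 0 with 3.5 RPM, the 500 nearest regions or the 2-fold threshold, 1 and 1 with the 1 kb window or the filter, and 0 for wild type over EV with either scaling. A window of 10 kb added 1 higher region in each comparison, and 0.07 RPM gave 1 lower region for mutant over wild type. The other 100 recomputed summary values stayed within 1.5 times, for counts, or within the counting interval of the summed reads, for medians. CDKN1C was the lowest of the 7 genes against EV under every setting except wild type over EV with the 10 kb window, where CDKN2B was lower at −0.30. The causes were not tested. Depth limits the second regions of CDKN2B and CDKN2D most, with 36 reads or fewer in any library.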

Other observations

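The regions next to the CDK inhibitor starts gave ratios to EV on both sides of 1 in both KDM5A libraries. Every ratio to EV above 1 had an interval that includes 1. Apart from the region upstream of CDKN1C, the regions with such ratios had means under 5 RPM. Around CDKN2C, the region upstream, at chromosome 1, 51424013 to 51427042, had 34.2 RPM in the mutant library, 36.2 RPM in the wild-type library and 37.99 RPM in the EV library. The region downstream, at chromosome 1, 51442242 to 51444936, had 28.5, 26.9 and 31.1 RPM in the same libraries. In gene order CDKN2C is flanked by FAF1 and C1orf185, and the files name the gene of neither region. On the far side of CDKN2B, the next region, at chromosome 9, 22084307 to 22085901, lay 75.3 kb away and had 5.45 RPM in the mutant library, 4.70 RPM in the wild-type library and 4.29 RPM in the EV library. Its ratios to EV were 1.27 (0.841 to 1.92) and 1.09 (0.720 to 1.67) for the mutant and the wild type. CDKN1A stood alone downstream of its start, since the next region on that side lay 81.4 kb away.

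The KDM5A start itself, whose region lies at chromosome 12, 496602 to 499566, was not among the promoters that were lower. It had 59.96, 58.0 and 55.1 RPM in the mutant, wild-type and EV libraries, and 0.221% of strong regions had a higher ratio of mutant to EV. This region runs 1.40 kb past the start. Any reads of the transfected KDM5A that fall in it cannot be told apart from those of the cells' own promoter.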
